A study of Mus musculus with 10 samples.

Results

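Calcineurin is a calcium-activated phosphatase, and the genes described here encode its subunits, its RCAN regulators and the NFAT transcription factors that it switches on. The 10 genes were Ppp3ca, Ppp3cb and Ppp3r1 (calcineurin subunits), Rcan1, Rcan2 and Rcan3 (regulators of calcineurin) and Nfatc1, Nfatc2, Nfatc3 and Nfatc4 (calcium-regulated NFAT factors). They were chosen by name, and each is represented by the brightest probe set that the platform annotation gives to that symbol alone. All 10 were measured, each by 1 probe set, among 19938 genes. Hippocampal RNA came from 5 Dp1Rhr mice and 5 control mice, all males of 16 weeks on a C57BL/6N background per the labels, with both hippocampi of a mouse on 1 array. Dp1Rhr mice, a model of Down syndrome, have 3 copies of the stretch of chromosome 16 that starts at Cbr1 and ends at Fam3b, by tandem duplication. The controls carry no duplication and were littermates bred by crossing the Dp1Rhr line with the Dp5Yah line. Dp5Yah, a duplication of the more proximal segment that includes Rcan1, was carried by neither group.

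Calcium entering a neuron binds calmodulin, which turns on calcineurin. Calcineurin then removes phosphates from NFAT proteins, which enter the nucleus, and from synaptic proteins such as those of the endocytic machinery. RCAN proteins bind calcineurin and restrain it, and kinases including DYRK1A put the phosphates back and send NFAT out of the nucleus. In the hippocampus calcineurin is known for its part in synaptic depression. RCAN1 and DYRK1A are both encoded on human chromosome 21, but in Dp1Rhr mice only Dyrk1a is duplicated. Rcan1 (GRCm38.p6, chr16:92391951-92466169) ends 1.14 Mb before the start of Cbr1, at the edge of the duplication, and keeps 2 copies.

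Rcan1 has alternative transcript starts, and its internal start, which gives a shorter protein, is known as a target of NFAT and so as a feedback on calcineurin. The 250 bases before each of its starts are shown so that their letters can be compared (RefSeq, GRCm38.p6, minus strand, 5′ to 3′). Capitals mark the NFAT core letters GGAAA on either strand.
Rcan1, internal start, chr16:92400079-92400328: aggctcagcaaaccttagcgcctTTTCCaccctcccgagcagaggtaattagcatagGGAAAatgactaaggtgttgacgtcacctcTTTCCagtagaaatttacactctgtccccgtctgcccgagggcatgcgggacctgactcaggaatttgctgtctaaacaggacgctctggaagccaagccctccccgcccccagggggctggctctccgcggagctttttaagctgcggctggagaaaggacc
Rcan1, distal start, chr16:92466170-92466419: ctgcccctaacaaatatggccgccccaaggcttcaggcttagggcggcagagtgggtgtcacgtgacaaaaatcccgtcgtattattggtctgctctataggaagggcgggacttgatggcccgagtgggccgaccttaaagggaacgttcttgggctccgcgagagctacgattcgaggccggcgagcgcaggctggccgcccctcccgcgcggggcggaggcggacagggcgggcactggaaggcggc
The internal window held 3 matches and the distal window 0, while 6.39% of 32851 windows of the same length before RefSeq starts held 3 or more and 55.6% held at least 1. The AP-1 letters TGANTCA, searched on both strands, were found 1 time in the internal window, apart from the NFAT core matches, and 0 times in the distal one, and 6.7% of all windows held them. A window was at hand for 8 of the 10 genes, 13 windows in all, of which 8 held GGAAA. The other counts were 1 for Rcan3, 2, 0 and 0 for the starts of Rcan2, 1 and 3 for Nfatc2, 1 and 0 for Nfatc3, 3 for Nfatc4, 3 for Ppp3cb and 0 for Ppp3r1. A match of letters is a description of the sequence and not a bound site. The array gave 1 value for all Rcan1 transcripts, so the starts could not be told apart in the expression data.

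The deposited values were on a log2 scale after RMA, and the arrays correlated with each other at 0.995 to 0.999. All 11 markers of hippocampal neurons lay above the 40th percentile of mean signal, and their mean per array was 10.97 to 11.02 in Dp1Rhr and 10.99 to 11.05 in control. Control replicates 2 and 3 stood apart. Over 17 choroid plexus markers they had means of 6.93 and 7.13, against 8.46 to 9.29 in Dp1Rhr and up to 8.89 in the other controls. Over 16 immediate early genes, which neuronal activity induces, they had 9.26 and 9.53, against 8.58 to 8.70 in Dp1Rhr and 8.76 or more in the other controls. Every control array thus lay above every Dp1Rhr array in this mean. All 16 had log2 fold changes below 0 (median -0.40). By limma, 13 had an unadjusted p under 0.05 (15.0% of all genes) and 2 were lower at an adjusted p of 0.05 (0.176% of all genes). Dp1Rhr arrays differed from control in other markers. All 8 habenula markers had log2 fold changes above 0 (median 0.46), with means of 8.15 and 8.34 in Dp1Rhr replicates 2 and 4 and 7.70 in replicate 3, against 6.97 to 7.51 in control. All 7 oligodendrocyte markers were also above 0, with means of 11.54 to 11.76 in Dp1Rhr and 11.46 to 11.60 in control. The part of these lists in the results below was not tested beyond leaving out arrays and the choroid plexus covariate. Each member is also given without control replicates 2 and 3 where it is described. In bulk tissue, fewer cells of a type and less RNA per cell cannot be told apart.

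The first question was whether any of the 10 genes differed between Dp1Rhr and control. None passed the test in either direction: with limma and Benjamini-Hochberg adjustment over all genes, 0 of 10 were higher and 0 of 10 lower at an adjusted p of 0.05, where 0.627% of all genes were called higher and 0.176% lower. At an unadjusted p of 0.05, 0 of 10 passed, against 15.0% of all genes. FCROS, the rank method of the study, also called 0 of 10, and it called 678 of all 19938 genes higher and 397 lower. The arrays of the groups overlapped for all 10 genes, while 1.82% of all genes had every Dp1Rhr array above every control array and 1.70% had every one below. The log2 fold changes (Dp1Rhr over control) ran from -0.07 to 0.06 with a median of 0.01, beside a median of -7.57e-05 over all genes, and 6 were above 0 and 4 below. The 95% confidence intervals of the 10 genes together spanned -0.15 to 0.16, that is, folds of 0.904 to 1.12. The SE of the 10 changes, 0.03 to 0.05, gives the precision of 5 arrays per group on the array scale.

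**Figure D1:**
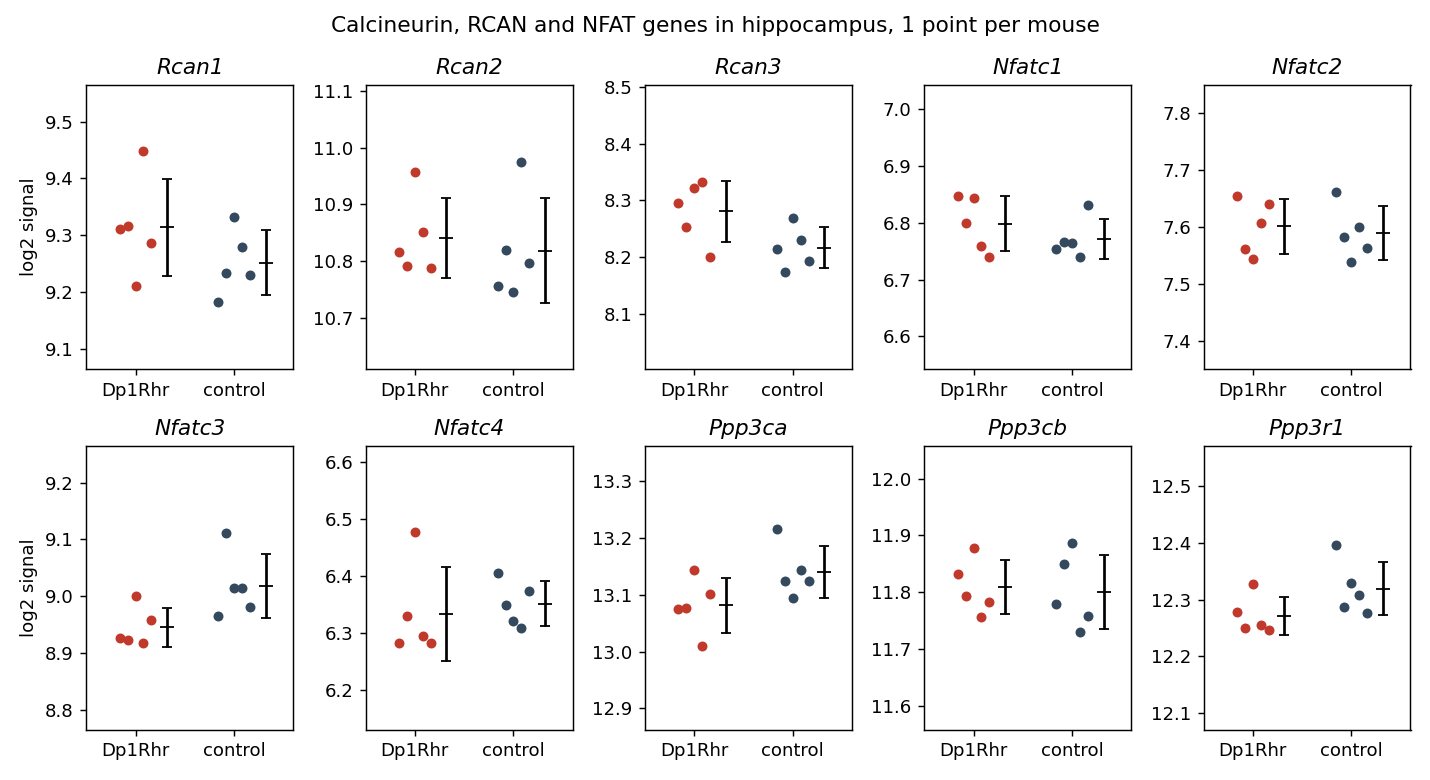
Log2 signal of each of the 10 genes by mouse, Dp1Rhr left and control right, with the mean and SD beside each group of 5; every panel spans the same range of log2 units. The groups overlap in all 10 panels.

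Among the RCAN genes, Rcan1 stood at 9.31, 9.32, 9.21, 9.45 and 9.29 in Dp1Rhr replicates 1 to 5, against 9.18, 9.23, 9.33, 9.28 and 9.23 in control replicates 1 to 5. Only Dp1Rhr replicate 4 lay above all controls, and Dp1Rhr replicate 3 lay below 4 of the 5. Rcan1 averaged 9.31 ± 0.09 in Dp1Rhr and 9.25 ± 0.06 in control (SD, n = 5 each), a log2 fold change of 0.06 ± 0.04 SE with a 95% interval of -0.03 to 0.16 (limma adjusted p = 0.576). The interval holds 0. Without control replicates 2 and 3 the change was 0.08 (adjusted p = 0.539), and it was 0.03 without Dp1Rhr replicate 4 (adjusted p = 0.852) and 0.02 without Dp1Rhr replicates 2 and 4 (adjusted p = 0.954), a setting chosen after the data were seen. Dyrk1a, the NFAT kinase inside the duplication, gives the contrast of 1 gene at 3 copies. Cbr1, also at 3 copies, had a change of 0.04, below that of Rcan1 (95% interval -0.11 to 0.20, limma adjusted p = 0.854). Dyrk1a stood at 11.97, 11.97, 12.06, 11.98 and 12.01 in Dp1Rhr, against 11.80, 11.76, 11.70, 11.72 and 11.65 in control. All Dp1Rhr arrays lay above all control arrays (0.27 ± 0.03 SE, adjusted p = 0.0110). These are values of the brighter of its 2 probe sets, and the mean of both gave a smaller change of 0.20 (limma adjusted p = 0.0257). The intervals of Rcan1 and of Dyrk1a (0.20 to 0.35) both lie below 0.585, the log2 of 3 over 2. That value thus does not separate Rcan1, at 2 copies, from Dyrk1a, at 3 copies, on these arrays. The change of Dyrk1a at its brighter probe set exceeded that of Rcan1 by 0.21 on the log2 scale (two-sided exact permutation p = 0.0159 over 252 assignments of the arrays, smallest possible 0.00794). This comparison was made with earlier results of these data known, and the mean of both probe sets was not tested in this way.

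Rcan2, a paralogue known to respond to thyroid hormone, had 10.82, 10.79, 10.96, 10.85 and 10.79 in Dp1Rhr and 10.76, 10.82, 10.75, 10.97 and 10.80 in control. Each group had 1 high array, and the rest overlapped (0.02 ± 0.05 SE, adjusted p = 0.899). Rcan3, the least studied paralogue, had 8.30, 8.25, 8.32, 8.33 and 8.20 in Dp1Rhr and 8.21, 8.17, 8.27, 8.23 and 8.19 in control. Of its Dp1Rhr arrays 3 of 5 lay above all controls, but the difference of 0.06 ± 0.03 SE did not pass (95% interval -0.01 to 0.14, adjusted p = 0.397). With control replicates 2 and 3 left out, the changes were -0.0017 for Rcan2 and 0.07 for Rcan3.

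Calcineurin has a catalytic and a regulatory subunit. Ppp3ca encodes the catalytic subunit that prevails in brain, and it had 13.07, 13.08, 13.14, 13.01 and 13.10 in Dp1Rhr, against 13.22, 13.12, 13.09, 13.14 and 13.12 in control. Of the Dp1Rhr arrays 3 of 5 lay below all controls, 1 lay above the control mean, and the change was -0.06 ± 0.03 SE on the log2 scale (adjusted p = 0.463). Ppp3r1, the calcium-binding regulatory subunit, had 12.28, 12.25, 12.33, 12.26 and 12.25 in Dp1Rhr, against 12.40, 12.29, 12.33, 12.31 and 12.28 in control. Again 3 of 5 Dp1Rhr arrays lay below all controls, and the change was -0.05 ± 0.03 SE (adjusted p = 0.534). Ppp3cb, a further catalytic subunit, had 11.83, 11.79, 11.88, 11.76 and 11.78 in Dp1Rhr and 11.78, 11.85, 11.89, 11.73 and 11.76 in control, and its groups covered nearly the same range (0.01 ± 0.04 SE, adjusted p = 0.960). Ppp3ca had -0.08, Ppp3r1 -0.06 and Ppp3cb 0.05 without control replicates 2 and 3.

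Of the NFAT factors, Nfatc3, a member expressed in neurons and glia, had the smallest p of the 10 genes. It had 8.93, 8.92, 9.00, 8.92 and 8.96 in Dp1Rhr, against 8.97, 9.11, 9.01, 9.02 and 8.98 in control. All 5 Dp1Rhr arrays lay below the control mean and 4 of 5 below every control, but the log2 change of -0.07 ± 0.03 SE did not pass (95% interval -0.15 to 0.00, adjusted p = 0.337). Control replicate 2, which stood apart in the marker lists, was its highest array at 9.11. Without control replicates 2 and 3 the change was -0.04, with an adjusted p of 0.655.

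Nfatc4, an NFAT factor studied in hippocampal neurons, had 6.28, 6.33, 6.48, 6.30 and 6.28 in Dp1Rhr and 6.40, 6.35, 6.32, 6.31 and 6.37 in control. Dp1Rhr replicate 3 was the highest of all 10 arrays while 3 of the other Dp1Rhr arrays lay below every control (-0.02 ± 0.04 SE, adjusted p = 0.903). Nfatc1, known from lymphocytes and heart valves, had 6.85, 6.80, 6.84, 6.76 and 6.74 in Dp1Rhr and 6.75, 6.77, 6.76, 6.74 and 6.83 in control (0.03 ± 0.03 SE, adjusted p = 0.778). Nfatc2, known from T cells, had 7.65, 7.56, 7.54, 7.61 and 7.64 in Dp1Rhr and 7.66, 7.58, 7.54, 7.60 and 7.56 in control (0.01 ± 0.03 SE, adjusted p = 0.923). Nfatc1 and Nfatc4 were the 2 members below the 40th percentile of mean signal, and no detection call was used. Without control replicates 2 and 3 the changes were -0.03 for Nfatc4, 0.02 for Nfatc1 and -0.0075 for Nfatc2.

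**Figure D2:**
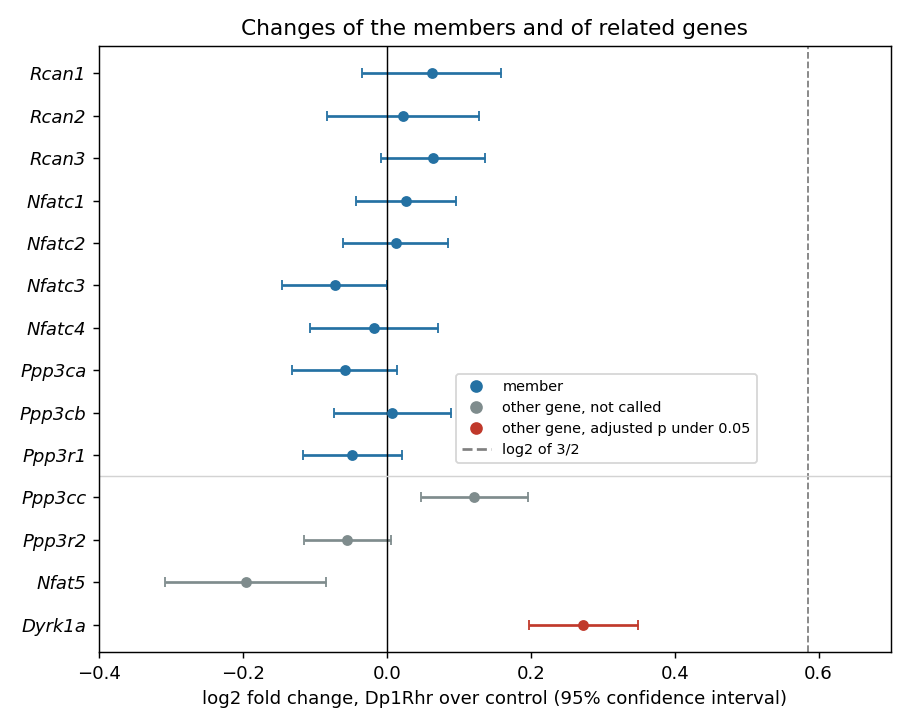
Log2 fold change (Dp1Rhr over control) with its 95% confidence interval for the 10 members, above the line, and for Ppp3cc, Ppp3r2, Nfat5 and Dyrk1a below it. All 10 member intervals lie within -0.15 to 0.16. Every interval shown, that of the duplicated Dyrk1a included (0.20 to 0.35), lies left of the dashed line at 0.585, and Dyrk1a is the gene that passed.

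Of the calcineurin and NFAT genes outside the 10, Ppp3cc and Nfat5 had larger log2 fold changes than any of the 10, and neither passed. Ppp3cc, a catalytic subunit best known from testis, had 9.33, 9.30, 9.26, 9.38 and 9.32 in Dp1Rhr and 9.19, 9.27, 9.21, 9.19 and 9.13 in control. Of the Dp1Rhr arrays 4 of 5 lay above all controls (0.12 ± 0.03 SE, adjusted p = 0.114). Nfat5, which responds to salt rather than to calcineurin, had 9.41, 9.60, 9.65, 9.47 and 9.62 in Dp1Rhr and 9.80, 9.78, 9.77, 9.63 and 9.75 in control, with 4 of 5 Dp1Rhr arrays below all controls (-0.20 ± 0.05 SE, adjusted p = 0.0949). Ppp3cc had 0.15 (adjusted p = 0.151) and Nfat5 -0.18 (adjusted p = 0.266) without control replicates 2 and 3. Ppp3r2, a regulatory subunit of testis, was dim at 5.03 ± 0.01 in Dp1Rhr and 5.08 ± 0.04 in control (SD, n = 5 each), and its groups did not overlap although the change was -0.06 (adjusted p = 0.383).

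Other genes of the pathway were taken from lists by role. Of 73 listed genes 69 were measured, and 2 were higher and 0 lower at an adjusted p of 0.05, with a median of -0.01, against 0.627% of all genes called higher and 0.176% lower. An unadjusted p under 0.05 was found for 18 of the 69, beside 15.0% of all genes. All Dp1Rhr arrays lay below all controls for 8 of the 69 and above them for 3, beside 1.70% and 1.82% of all genes. The calls were Dyrk1a and Acp5. Acp5 encodes an acid phosphatase that NFAT induces in osteoclasts. It had 6.45 ± 0.05 in Dp1Rhr and 6.28 ± 0.04 in control (SD, n = 5 each), so it was dim, and rose by 0.18 ± 0.03 SE (adjusted p = 0.0386), with all Dp1Rhr arrays above all controls. Of the other 12 measured NFAT targets none passed, and the cytokine gene Il4 had 0.06 (adjusted p = 0.296). Acp5 lost its call when any single array other than Dp1Rhr replicate 5 was left out (adjusted p of 0.0523 to 0.106), and it also lost it without control replicates 2 and 3 (0.139), with the choroid plexus score as covariate (0.180), after a second quantile normalization (0.0506) and after median centring (0.0637). Its log2 fold change stayed between 0.15 and 0.20 in all settings run. For Dyrk1a the call was lost with Dp1Rhr replicate 1 left out (adjusted p = 0.0538), without control replicates 2 and 3 (0.0683) and with the choroid plexus score as covariate (0.0858), while its log2 fold changes there were 0.28, 0.28 and 0.27.

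Besides Dyrk1a, the other 8 measured NFAT kinases all had log2 fold changes below 0, and none passed. Dyrk2, a DYRK paralogue that phosphorylates NFAT, had -0.18 ± 0.05 SE (adjusted p = 0.0941). It was 1 of 3 of the 9 measured kinases with all Dp1Rhr arrays below all controls, beside 1.70% of all genes. The 13 measured genes of calmodulin and calcium entry or release had a median of -0.06 and none passed. Among them, the store-operated channel gene Orai2 had -0.09 (adjusted p = 0.125) and Ryr3, a calcium release channel, -0.27 (adjusted p = 0.141).

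The 11 anchors, inhibitors and immunophilins had a median of 0.03. Itpkb, an inositol trisphosphate kinase, had 0.17 (adjusted p = 0.167), 0.11 without control replicates 2 and 3 and 0.07 with the choroid plexus score as covariate. In the same list, Homer2, a scaffold that competes with calcineurin for NFAT, had -0.12 (adjusted p = 0.296). The 20 calcineurin substrates had a median of -0.04, with 15 below 0. Of these, Dnm1, the dynamin of synaptic vesicle endocytosis, had -0.10 (adjusted p = 0.158) and Epn1, an endocytic adaptor, -0.09 (adjusted p = 0.172), and both are among the 3 of 20 substrates whose Dp1Rhr arrays all lay below all controls (1.70% of all genes).

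**Figure D3:**
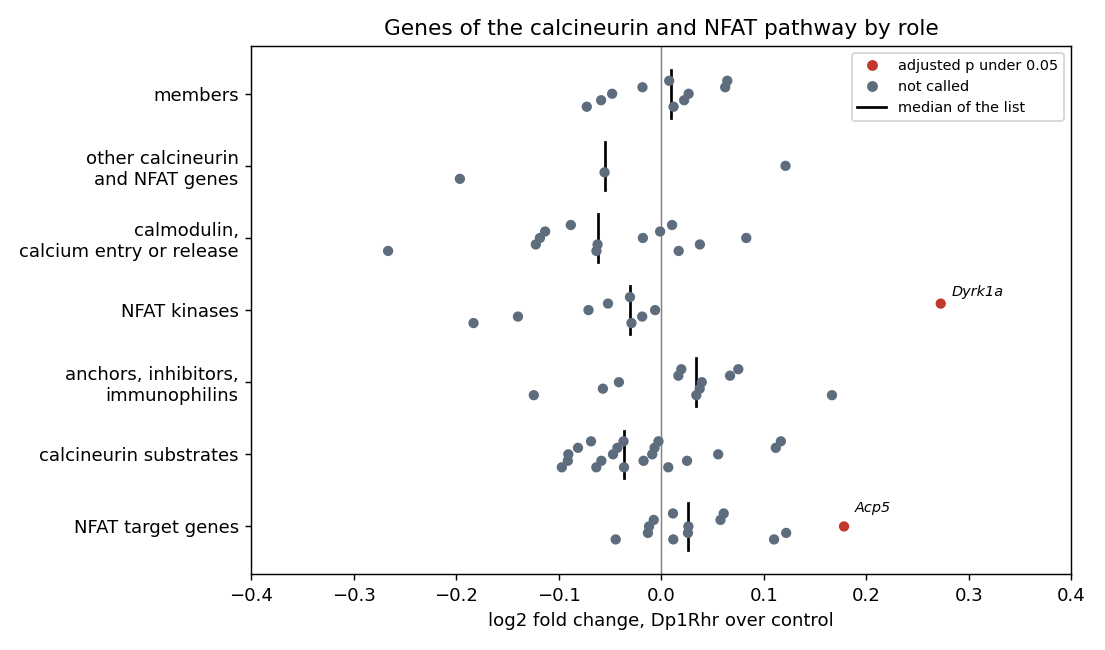
Log2 fold changes (Dp1Rhr over control) of the members and of 69 other pathway genes, grouped by role, with 1 point per gene, black bars at the list medians and red points at an adjusted p under 0.05. Dyrk1a at 0.27 and Acp5 at 0.18 are the points that passed.

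The genes around Rcan1 on chromosome 16, up to Cbr1, were also compared. All 10 were measured and none passed. Mrps6 had a log2 fold change of 0.12, Smim11 0.07, Cbr1 0.04, Kcne1 0.03, Setd4 -0.02, Fam243 -0.04, Slc5a3 -0.08 and Runx1 -0.09. Clic6 had 1.19 and Kcne2 0.59, and both belong to the choroid plexus markers, whose mean level per array ran from 8.46 to 9.29 in Dp1Rhr and from 6.93 to 8.89 in control. Rcan1 lies between them and had 0.10 with the choroid plexus score as a covariate (adjusted p = 0.534) and 0.06 without it.

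How the 10 genes varied between mice of a group was described with the group means removed. Over the 45 pairs of members, the deviations from the group means had a median Pearson r of 0.08 across the 10 arrays. The highest was 0.68, between Ppp3ca and Ppp3r1, the subunits of the same enzyme. The lowest was -0.90, between Rcan1 and Ppp3ca (Spearman -0.75). Dp1Rhr replicate 4 had the highest Rcan1, 0.13 above its group mean, with Ppp3ca 0.07 below, and Dp1Rhr replicate 3 had Rcan1 0.10 below and Ppp3ca 0.06 above. In control, replicate 3 had Rcan1 0.08 above and Ppp3ca 0.05 below, and replicate 1 had 0.07 below and 0.08 above. Without Dp1Rhr replicates 3 and 4, where Rcan1 deviated most, r was -0.80 and Spearman -0.31 over 8 arrays, so the order of the values rests on that pair. Without control replicates 2 and 3, r was -0.91. This pair was picked from 45 after the values were seen, so no p is given. Among 11962 genes above the 40th percentile of mean signal, 17 had an r with Rcan1 under -0.9 and 42 over 0.9, which is 0.493% in all. Such an r describes these 10 arrays only, which share the protocol and the normalization method.

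**Figure D4:**
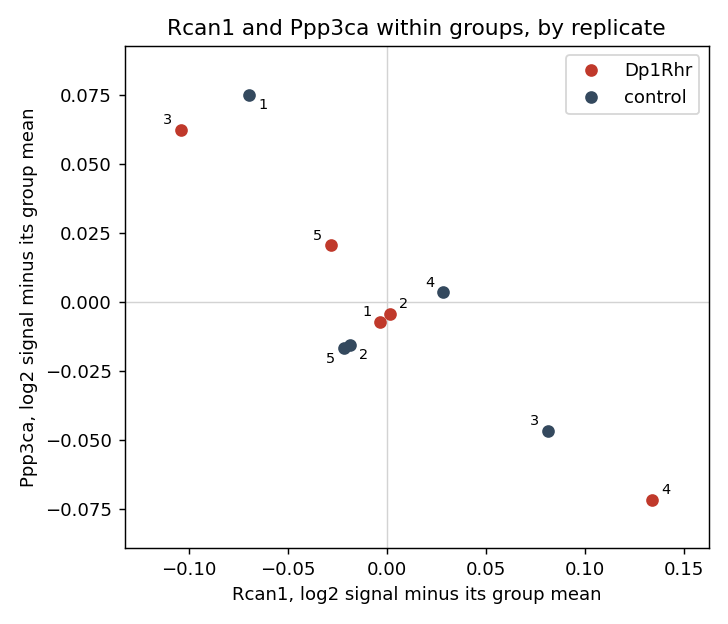
Rcan1 and Ppp3ca in each mouse as log2 signal minus the mean of its group, red for Dp1Rhr and dark for control, labelled by replicate number. The points run from upper left to lower right (r = -0.90 over 10 arrays), with replicates 3 and 4 of Dp1Rhr and 1 and 3 of control at the ends.

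The genes whose deviations were most like those of Rcan1, among the 11962, were Cdipt, which makes phosphatidylinositol, with r = 0.96, Timmdc1, an assembly factor of respiratory complex I, with 0.96, Dph2, of diphthamide synthesis, with 0.95, Cavin3, a caveolar protein, with 0.95, and Adar, an RNA-editing enzyme, with 0.95, each over 10 arrays. Without control replicates 2 and 3 they had 0.95, 0.96, 0.95, 0.95 and 0.94 over 8 arrays, but their ranks were 15, 13, 17, 22 and 29, and Romo1 ranked 1 with 0.99. The ranking thus changed with the arrays used. No other pair was left out of it, so whether that pair matters in particular was not tested. Among the immediate early genes, r with Rcan1 was 0.68 for Fosb, 0.43 for Fos, 0.29 for Arc and -0.11 for Npas4. With control replicates 2 and 3 left out it was 0.73, 0.43, -0.20 and -0.70, so the sign for Arc turned. In control replicate 3, which had the highest immediate early gene mean of all arrays at 9.53, Rcan1 was the highest of the controls at 9.33, while in control replicate 2, with 9.26, it was at 9.23. Dp1Rhr replicate 4 had the highest Rcan1 of all arrays and the lowest immediate early gene mean, 8.58.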

How the data were processed

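Total RNA of both hippocampi of each mouse was hybridised to Affymetrix Mouse Gene 1.0 ST arrays. The authors processed the scans with RMA (background correction, quantile normalization and probe summary) and deposited log2 values per probe set. The quantile step hides any shift shared by all genes. The set of arrays normalized together is not given in the sources used here. Besides RMA, limma and mm10 are named in the submitters' processing notes. The number of arrays limits the precision. Samples are biological replicates by their labels.

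Of 35556 probe sets, 21789 had exactly 1 symbol in the platform annotation, 1621 had several and 12146 were not listed there. The brightest probe set per gene was kept, which left 19938 genes, and 21698 probe sets matched RefSeq genes of GRCm38.p6 by Entrez identifier. The test of Dp1Rhr against control used limma 3.58.1 in R 4.3.3 (lmFit, eBayes, two-sided, Benjamini-Hochberg over all genes, threshold 0.05), and the code was tested on simulated data. FCROS, the study's method, was an alternative, rewritten here (trim 0.25, calls at f-values under 0.025 or over 0.975), because it calls a near-fixed share of genes. Other alternatives were other normalizations, a filter on dim genes, other uses of probe sets, other eBayes settings and array weights, a replicate block, the choroid plexus score as a covariate, leaving out each array, leaving out control replicates 2 and 3 together and, added after the data were seen, leaving out Dp1Rhr replicates 2 and 4 together. Likeness of pattern was Pearson's r of deviations from the group means.

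The members and all lists were chosen with earlier results of these data known. Named genes were the members, Ppp3cc, Ppp3r2 and Nfat5, Dyrk1a and any other pathway gene that passed, the 2 genes with the smallest p of each list, the measured neighbours of Rcan1 and the 5 genes most like it. Ppp3ca as the partner of Rcan1, and Fos, Fosb, Arc, Npas4, Dyrk1b and Romo1, were named after their values were seen. Promoter windows came from RefSeq (GRCm38.p6), checked for strand on 1811 overlapping pairs, of which 1811 matched.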

Additional observations from a re-analysis of the deposited data

Results flagged for a closer look

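Of the 20 groups of 5 arrays (10 genes, Dp1Rhr and control), 1 held an array far from the others by Dixon's test: Nfatc4 in Dp1Rhr replicate 3, at 6.48, against 6.28 to 6.33 in the other Dp1Rhr arrays and 6.31 to 6.40 in control. Chance flags about 1 in 20 groups. Without that array the log2 fold change of Nfatc4 was -0.05 (adjusted p = 0.391).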

How the results depend on the processing

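In all alternatives run, 0 of the 10 genes were called higher or lower. Rcan1, Rcan3, Nfatc3, Ppp3ca and Ppp3r1 kept the sign of their log2 fold change in 21 of 21 alternatives, and Nfatc1 and Nfatc4 in 20 of 20, since the filter on dim genes removed them. Rcan1 ranged from 0.02 to 0.10 and Nfatc3 from -0.10 to -0.03. Of the other named genes, Homer2 ranged from -0.17 to -0.08 and Il4 from 0.04 to 0.08. Values near 0 changed sign without passing. Centring arrays on their medians gave -0.0019 for Rcan2, -0.012 for Nfatc2 and -0.016 for Ppp3cb; leaving out control replicates 2 and 3 together gave -0.0017 for Rcan2 and -0.0075 for Nfatc2; a second quantile normalization gave -0.014 and the choroid plexus covariate -0.028 for Nfatc2. Leaving out single arrays gave -0.0069 to 0.061 for Rcan2, -0.0012 to 0.030 for Nfatc2 and -0.010 to 0.029 for Ppp3cb. The pathway calls, 2 higher and 0 lower, became 1 higher under a second quantile normalization, median centring or the filter on dim genes, and 0 higher under the replicate block, the choroid plexus covariate, without control replicates 2 and 3, or without Dp1Rhr replicates 2 and 4, a setting chosen after seeing the data. Under the block Dyrk1a kept 0.27 (adjusted p = 0.0988) and Acp5 0.18 (0.134). Without single arrays they ranged from 0 to 2 higher. FCROS gave 4 lower (Nfat5, Ryr3, Dyrk1b and Dyrk2). The causes were not tested, except that the filter removes Acp5. Over all genes, 125 higher and 35 lower calls became 97 and 89 under centring, where the median log2 fold change was -0.02, 4 and 0 under the replicate block, 5 and 1 with the choroid plexus covariate, 5 and 0 without control replicates 2 and 3, 1 and 0 without Dp1Rhr replicates 2 and 4, 213 and 67 with array weights, 678 and 397 by FCROS, 100 and 19 with every probe set on its own, and 5 to 217 and 0 to 67 without single arrays. Deviations of samples with the same replicate number had an r of -0.34 to 0.12 over the 5 numbers. Samples with different numbers were not compared, so whether a number marks a shared origin was not tested. With 5 arrays per group, the SE of the 10 genes ran from 0.03 to 0.05 on the log2 scale. Changes well above the SE could also go uncalled: Ppp3cc at 0.12 ± 0.03 SE and Nfat5 at -0.20 ± 0.05 SE did not pass. The intervals of the 10 genes together spanned -0.15 to 0.16, a span that joins different genes and is not a limit of detection.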
